A study of Mus musculus with 18 samples.

Results

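The sex difference in liver gene expression was measured in knock-in mice that are homozygous for the L form at residue 446 of GKRP (gene Gckr), a regulatory protein of hepatocytes that acts in glucose metabolism. The comparison used the 9 livers of this genotype (LL) among the 18 of the series, 5 from females (libraries FLL1 to FLL5) and 4 from males (MLL1 to MLL4), chosen by their genotype and sex labels. The other 9 livers came from mice of the P form (PP, 5 female and 4 male) and were used where the sex difference was compared between genotypes. All mice were of the strain GCKR-P446L-EMI-B6N, so both LL groups carry the same knock-in allele, and all were kept on standard chow. The sample labels give an age of 11 weeks for FLL1 and FLL2, 13 weeks for FLL3, FLL4, MLL1, MLL2 and MLL3, and 14 weeks for FLL5 and MLL4, whereas the design text gives 14 weeks for all mice. The PP females were 9, 9, 11, 12 and 14 weeks old and the PP males 9, 12, 14 and 14 by the labels, so 3 PP mice were younger than any LL mouse. Of 52230 genes with a transcript in the files, 9856 autosomal genes were tested, namely those that reached 10 counts in 4 or more of the 9 LL libraries, so genes of the X and Y chromosomes are not part of the comparison.

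Mouse liver is one of the most sexually dimorphic tissues in gene expression. Growth hormone is secreted in pulses in males and almost continuously in females, and it acts on hepatocytes through its receptor, the kinase JAK2 and the transcription factor STAT5b. The repressors BCL6, which is male-biased, and CUX2, which is female-biased, are known to restrain the genes of the other sex, and the genes under this control include cytochrome P450 enzymes, sulfotransferases and the major urinary proteins (Mup), which are pheromone carriers made by liver and excreted in urine.

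The 9 LL libraries held 3982871 to 6183695 estimated counts, with overlapping ranges in the sexes (exact two-sided permutation p = 0.706, n = 5 and 4, smallest p possible 0.00794). Mitochondrial transcripts took 12.5% ± 1.34 of counts in females and 12.6% ± 3.73 (SD) in males, with 17.9% in MLL1. The fragment length estimated from the files was 291.5 ± 52.1 bases in female LL and 407 ± 156 in male LL libraries (exact permutation p = 0.143), and its part in single results is known only from an alternative fit that includes it. Over the 9856 genes tested the log2 fold change was weakly related to transcript length (Spearman's rho -0.13 across genes, which are not independent replicates, and -0.0653 in that fit). The median transcript length was 1811 bases for DEGs higher in females, 2244 for DEGs lower and 2248 for all genes. The liver label was checked on 15 hepatocyte markers, whose summed level was 796500 to 931500 normalized counts in females and 693900 to 841800 in males. Most of this sum was Alb, the albumin gene. Of the 15 markers, 1 was called higher and 1 lower in females, and 7 had an unadjusted P below 0.05. None of 13 Kupffer cell and macrophage, 13 endothelial, 2 cholangiocyte, 4 lymphocyte and neutrophil, 4 erythroid and 4 pancreas, gut and fat markers passed the DESeq2 test, with 10 of these 40 genes at an unadjusted P below 0.05 and none called by edgeR. Over all genes tested, 2032 of 9856 had an unadjusted P below 0.05. Most of these markers leaned towards females. In the same order, 11, 9, 2, 4, 4 and 2 of them had a positive log2 fold change, against 5075 of the 9856 genes. A further 7 autosomal cholangiocyte, 12 lymphocyte and neutrophil, and 11 pancreas, gut and fat markers stayed below the count minimum. The summed level of the 2 cholangiocyte markers did not overlap between the sexes (85 to 147 in females, 56.9 to 78.7 in males), and of 9 stellate cell and fibroblast markers, Ecm1 and Lum rose in females (log2 fold changes 0.91 and 1.11). The call of Ecm1 was lost with transcript length as an offset and that of Lum in 13 of 20 alternatives, among them without FLL1, FLL2, FLL3, FLL5 or any male library. Their part in the results below was not tested, and in whole liver a change in the number of cells of a type and a change in RNA per cell cannot be told apart.

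A gene was called a DEG (differentially expressed gene) at a Benjamini-Hochberg adjusted P below 0.05 in DESeq2 together with a fold of at least 1.3 or at most 0.7. There were 623 DEGs by sex in LL livers, 6.32% of the genes tested, with 357 higher in females (3.62%) and 266 lower in females (2.7%). The balance of directions moved with the method, with 226 higher and 230 lower in edgeR, 212 and 217 with transcript length as an offset, and 400 and 197 with a minimum of 50 counts. The count minimum was passed by 91 genes that reached 10 counts in no male LL library, 39 of them called higher. It was also passed by 7 genes that reached it in no female LL library, all called lower. All of these genes entered the test through the group where they were high. The minimum had to be met in 4 libraries, which 4 of 5 females could do but only all 4 males, so the 91 and the 7 are not directly comparable. An unadjusted P below 0.05 was found for 2032 genes. The 9 libraries did not overlap between the sexes for 825 genes (8.37% of those tested), of which 422 were DEGs. Most DEGs were of modest size: the median log2 fold change was 0.95 among those higher and -0.82 among those lower in females, and 356 of 623 had an absolute log2 fold change below 1. At the extremes, 25 DEGs had a log2 fold change above 3 and 31 below -3. Of the 623 DEGs, 579 were protein coding. In a principal component analysis of the 500 most variable genes the first component held 42.1% of the variance and separated the sexes.

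**Figure D1:**
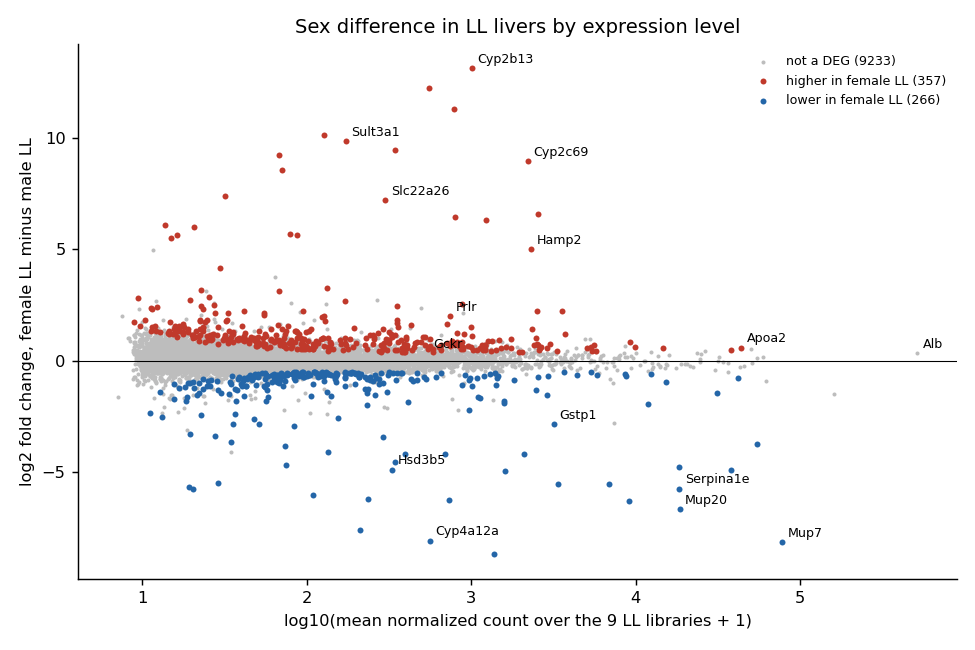
Each point is 1 of 9856 autosomal genes, placed by the log10 of its mean normalized count plus 1 over the 9 LL libraries (horizontal axis) and by the fitted log2 fold change of female LL minus male LL (vertical axis). Red points are the 357 DEGs higher and blue points the 266 DEGs lower in female LL livers. The upper end holds Cyp2b13, Sult3a1 and Cyp2c69, the lower end Mup7, Mup20 and Cyp4a12a. Fitted values of genes with few or no counts in one sex are no bound on the fold.

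DEGs were found on every autosome, from 4.62% of the genes tested on chromosome 11 to 8.16% on chromosome 4. Chromosome 4, which carries the Mup cluster and the Cyp4a genes, had 35 DEGs lower and 19 higher in females. The 35 include the 14 Mup genes called lower, many of them near-identical in sequence and so not all separate results. On chromosome 7, which carries the Cyp2b, Cyp2a and Sult2a clusters, the direction was the opposite, with 36 higher and 11 lower. Chromosomes 10 (33 higher, 10 lower) and 17 (31 higher, 11 lower) also held mainly DEGs that were higher in females.

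Among protein-coding DEGs with no overlap between the sexes and a mean of at least 50 normalized counts in the higher group (158 higher, 170 lower), the 15 in each direction with the largest fold change were chosen and are described first. Several of the 15 that were higher in females had no counts in any male library. Cyp2b13 (chr7:25760922-25795622), a cytochrome P450 of the female liver, had 1013, 1319, 2234, 2632 and 1895 normalized counts in FLL1 to FLL5 and 0 in all 4 male libraries, which is at least 543-fold higher (adjusted P = 1.4e-22) when each male library is set to the limit that 0 counts allow, 3 counts. The gene was therefore read in every female and in no male LL liver at this depth.

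A further 3 genes of the Cyp2a and Cyp2b families on chromosome 7 were higher in females. Cyp2b9, a neighbour of Cyp2b13 with a female-biased pattern, had 1416 ± 146 normalized counts in females and 16.4 ± 29 in males (log2 fold change 6.44 ± 1.04, SE, adjusted P = 1.1e-07), where MLL1 held 59.8 and the other males 0 to 4.77. The call of Cyp2b9 was lost with age as a term. Cyp2a4, a steroid 15-alpha-hydroxylase, had 2699, 2525, 2349, 1515 and 1824 in females and 6.5, 5.96, 1.78 and 96.2 in males (log2 fold change 6.30 ± 0.78, adjusted P = 1.91e-13). Each female value exceeded the highest male value, and MLL4 stood apart from the other males. Cyp2b10, the classical target of the receptor CAR, had 24.7 ± 14.2 in females and 0.493 ± 0.574 in males (log2 fold change 5.49 ± 1.13, adjusted P = 9.62e-05). In all, 4 of 7 Cyp2a and Cyp2b genes tested were higher in females and none was lower, with a median log2 fold change of 5.49 against 0.01 over all genes tested.

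The Cyp2c cluster on chromosome 19, whose enzymes oxidise fatty acids, steroids and drugs, held further genes of this group. Cyp2c69 had 6013, 5476, 4129, 311 and 3938 normalized counts in FLL1 to FLL5 and 6.5, 15.5, 8.9 and 1.08 in MLL1 to MLL4 (log2 fold change 8.96 ± 0.82, adjusted P = 1.05e-24). Cyp2c40, which hydroxylates arachidonic acid, had 6877, 5890.5, 5131, 1453 and 3282 in females and 25.9 to 69.2 in males (log2 fold change 6.58 ± 0.67, adjusted P = 7.39e-20). For both, FLL4 was the lowest female library, and still above every male. Cyp2c38 and Cyp2c37 rose by smaller amounts (log2 fold changes 2.44 ± 0.34 and 2.22 ± 0.34), from 102 ± 79.1 to 553 ± 132 and from 824 ± 429 to 3831 ± 759 normalized counts. Of 12 Cyp2c genes, 6 were higher and 1, Cyp2c67, was lower in females (log2 fold change -0.79 ± 0.24, lost without FLL4, FLL5, MLL2 or MLL4).

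Among the Cyp3a genes on chromosome 5, which oxidise steroids and many drugs, Cyp3a41a varied widely between females, with 966, 585, 5484, 12.3 and 51.4 normalized counts against 0, 0, 0 and 2.16 in males. The lowest female value remained above the highest male value. Its ratio of female to male counts was 3050 (95% exact binomial interval 844 to 25200, counting error only, 2 male counts, adjusted P = 2.84e-07). Cyp3a44 had 53.6 to 278 in females and 0 to 4.45 in males (log2 fold change 5.68 ± 0.85, adjusted P = 4.46e-09). The other 4 Cyp3a genes tested were not called.

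Sulfotransferases add sulfate to steroids and bile acids, and the Sult2a genes that rose varied widely between females. Sult2a2 had 37.4, 45.5, 488, 526 and 39.4 normalized counts in FLL1 to FLL5 and 0 in all males (at least 67.9-fold higher, adjusted P = 5.18e-05). Sult2a5, its neighbour on chromosome 7, had 12.8, 16.8, 209, 338 and 27.3 against 0 in all males (at least 36.1-fold higher, adjusted P = 0.00349), and Sult2a6 had 4.56, 9.89, 132, 121 and 10.9 against 0, 1.19, 0 and 0. For each of these 3 genes FLL3 and FLL4 were the highest females, both aged 13 weeks by the labels, as were 3 of the 4 males. The call of Sult2a5 was lost in edgeR, and that of Sult2a6 in edgeR, with fragment length as a term and without FLL4. Sult3a1 had 397, 383, 510.1, 61.7 and 198 in females and a single count in males (ratio 1210, interval 218 to 48000, adjusted P = 3.76e-13). In the other direction, Sult2a8, a male-biased member of the family, had 3055 ± 374 in females and 4407 ± 521 in males (log2 fold change -0.53 ± 0.15, adjusted P = 0.00944, lost without FLL5, MLL1 or MLL3).

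Slc22a26, an organic anion transporter of the Slc22 family, was uniform within females, with 433, 515, 556, 649 and 526 normalized counts in females and 13, 3.58, 0 and 0 in males (log2 fold change 7.19 ± 0.47, adjusted P = 1e-49). A1bg, a secreted glycoprotein gene, had 969, 1255, 578, 9.87 and 284 in females and 0 to 2.39 in males (3 male counts, ratio 797, interval 273 to 3870). Hao2, a peroxisomal hydroxyacid oxidase, had 40.1 to 271 in females and 1 count in males (ratio 472, interval 84.4 to 18700). FLL4 was the lowest female for A1bg but the highest for Slc22a26, so no library was uniformly low across these genes. Hamp2, a hepcidin family peptide gene and an abundant transcript, had 2424, 2142, 5428, 8212 and 2147 in females and 63.2 to 177 in males (log2 fold change 5.01 ± 0.66, adjusted P = 8.72e-12).

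Among the 15 genes with the largest rise and the 5 most abundant risen genes, Sult3a1, A1bg, Slc22a26 and Hamp2 carried the motif TTCNNNGAA, the palindrome bound by STAT factors, wholly within the 250 bases before the start of their most abundant transcript. H2-K1, of the same set, held 2 matches near the far end of its window and its sequence is not printed. The sequences are shown because STAT5b is the factor through which growth hormone acts on liver. They were read from the GRCm39 assembly on the strand of each gene, 5′ to 3′, with the motif in capitals. For Slc22a26 the window is chr19:7780056-7780305 on the minus strand and holds no annotated exon, with the motif starting 118 bases before the start of transcription.
Slc22a26: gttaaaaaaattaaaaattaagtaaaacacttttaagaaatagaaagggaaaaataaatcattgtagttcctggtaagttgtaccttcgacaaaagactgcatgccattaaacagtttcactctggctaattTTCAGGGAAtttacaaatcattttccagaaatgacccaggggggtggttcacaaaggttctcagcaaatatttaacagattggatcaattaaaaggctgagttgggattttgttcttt
For Sult3a1 it is chr10:33733457-33733706 on the plus strand, within an intron of a longer Sult3a1 transcript, with the motif starting at 98 bases before the start.
Sult3a1: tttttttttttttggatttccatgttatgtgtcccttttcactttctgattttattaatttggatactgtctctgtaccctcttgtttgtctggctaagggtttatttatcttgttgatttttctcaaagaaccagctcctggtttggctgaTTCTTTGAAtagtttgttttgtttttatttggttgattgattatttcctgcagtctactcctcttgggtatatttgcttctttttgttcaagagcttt
Since annotated exons overlap the windows of A1bg and Hamp2, only the motif with 10 bases on each side is given for them, at chr15:60793185-60793213 and chr7:30623682-30623710, both on the minus strand, with the motif starting 88 and 94 bases before the start.
A1bg: tgcccctaccTTCCAGGAAgggcaaacaa
Hamp2: caccactatcTTCTTGGAAttgagtcaag
The motif reads the same on both strands. It was present in 6.87% of the 250-base windows of all 9856 genes tested, in 7% of those of the 357 DEGs higher in females (25 genes) and in 7.89% of those of the 266 DEGs lower in females (21 genes), so DEGs of either direction held it about as often as all genes. The letters TATAAA on either strand were present in 8.73% of all windows, 11.5% of those of DEGs higher and 9.77% of those of DEGs lower in females. A match of letters is a description and not a measured binding site.

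**Figure D2:**
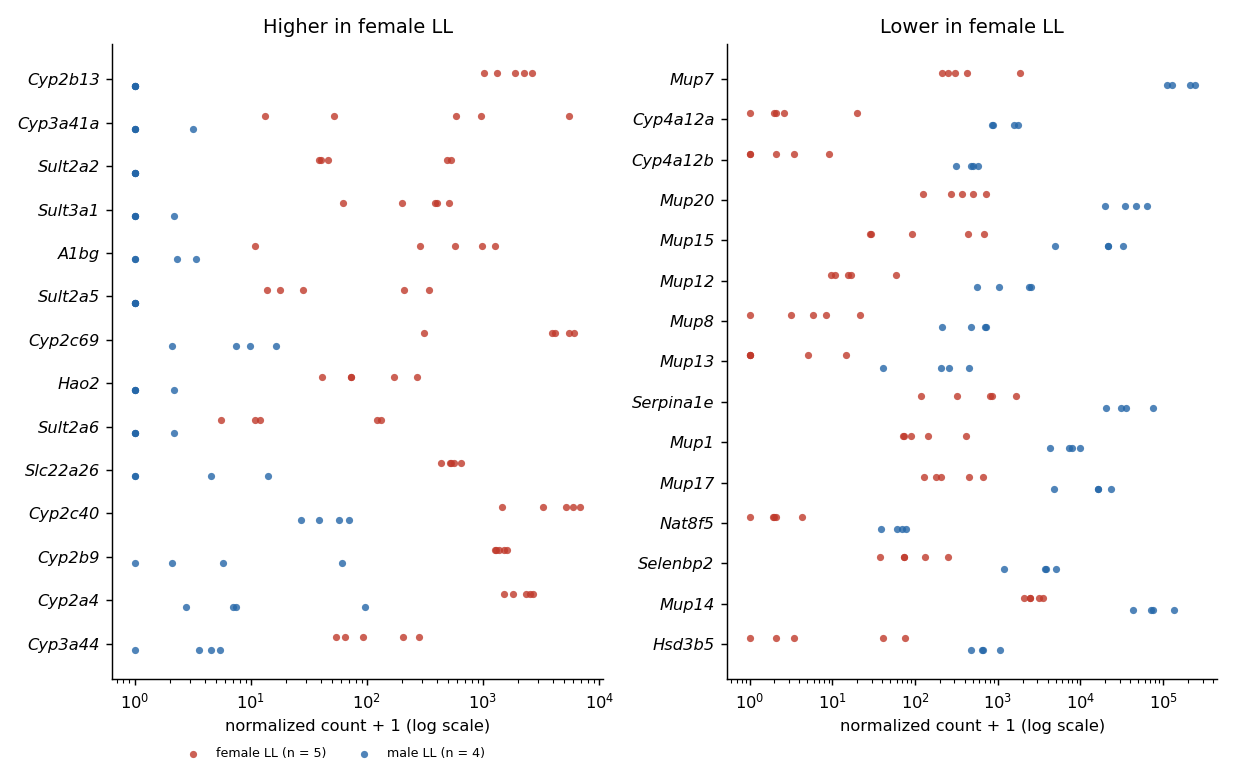
Normalized count plus 1 on a log axis for 14 of the 15 protein-coding DEGs with the largest rise (left) and the 15 with the largest fall (right) in female LL livers, each point 1 library, female LL in red (n = 5) and male LL in blue (n = 4). The groups do not overlap for any gene shown, which the choice required, and the spread between females is widest for Cyp3a41a (12.3 to 5484).

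The genes that were lower in females were dominated by the Mup family on chromosome 4. Mup genes together took 3.19% ± 1.04 of all counts in female LL and 15.3% ± 3.26 in male LL libraries (exact two-sided permutation p = 0.00794, the smallest that 5 against 4 can give), with 2.09 to 4.66% in females and 11.8 to 19.3% in males. Of 19 Mup genes tested, 14 were lower in females and none was higher, with a median log2 fold change of -4.78, and between 13 and 17 were lower under every alternative setting. Mup7 (chr4:60066445-60070490) had 1852, 305, 250.2, 421 and 211 normalized counts in FLL1 to FLL5 and 110822, 209385, 243205 and 129011 in MLL1 to MLL4 (log2 fold change -8.15 ± 0.86, adjusted P = 2.72e-18). Mup20, the male pheromone darcin, had 724, 367, 125, 505 and 268 in females and 19536, 46929, 34151 and 63352 in males (log2 fold change -6.69 ± 0.52, adjusted P = 2.64e-34). The smallest fall of a called Mup gene was that of Mup3, which had 10313 to 29816 in females and 39562 to 58036 in males (log2 fold change -1.47 ± 0.31, adjusted P = 0.00017). For Mup7, Mup1, Mup12 and Mup17 FLL1 was the highest female library, and for Mup19 the lowest male library, MLL4 at 27606, still held more than the highest female, FLL1 at 14168.

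Members of these clusters are near-identical in sequence, which limits how well reads can be assigned to one of them. Of the 31-base words of the transcripts of Mup15 and Mup19, 100% also occur in another quantified gene. The share was 92.4% for Mup7, 64.5% for Mup20, 99.9% for Cyp3a41a, 74.7% for Sult2a2, 64.9% for Cyp2c69 and 62.2% for Cyp4a12a, and it was 8.1% for Sult3a1, 12% for Slc22a26 and 0.662% for Hao2. The levels of single genes that share most of their words are therefore uncertain, whereas those of Sult3a1, Slc22a26, Hao2 and Sult2a6 (14.1%) rest mainly on words of their own.

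Among protein-coding genes outside the Mup family, the largest falls were those of Cyp4a12a and Cyp4a12b, the androgen-dependent fatty acid omega-hydroxylases of male liver. Cyp4a12a had 19.2, 0.989, 1.63, 0 and 1.09 normalized counts in females and 859, 1749.9, 1557 and 872 in males (log2 fold change -8.08 ± 1.07, adjusted P = 1.05e-11). Serpina1e, an antitrypsin paralogue, had 117 to 1659 in females and 20192 to 74863 in males (log2 fold change -5.75 ± 0.96, adjusted P = 2.49e-07). Selenbp2, a selenium-binding protein gene, had 246, 131, 72.5, 37 and 72.2 in females and 1176, 5101, 3799.7 and 3755 in males (log2 fold change -4.95 ± 0.70). For Selenbp2, Gstp1 and Cyp7b1 the lowest male was MLL1, which lay above all females. Hsd3b5, a male-biased 3-ketosteroid reductase, had 75.7, 39.5, 0, 2.47 and 1.09 in females and 476, 1051, 650.5 and 663 in males (log2 fold change -4.90 ± 1.26, adjusted P = 0.00372, lost without FLL2). Nat8f5, of the N-acetyltransferase 8 family, had 0 to 3.26 in females and 37.7 to 77.5 in males.

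Lists of genes known from other work to be biased in mouse liver were counted next. Their members were chosen with earlier results of these data known, so the counts are no independent check. Of 44 female-biased genes tested, 34 were higher in females, none was lower and 10 were not called, and the median log2 fold change was 2.07 against 0.01 over all genes. The 34 included Prlr, the prolactin receptor (1109.8 ± 93.7 against 280.3 ± 153, log2 fold change 1.99 ± 0.22, adjusted P = 1.02e-16), the peroxisomal transporter gene Abcd2 (log2 fold change 1.98) and the lipoprotein receptor gene Vldlr (log2 fold change 3.16). Of 45 male-biased genes tested, 32 were lower in females, 2 were higher and 11 were not called, with a median log2 fold change of -1.79. The 32 included Elovl3, a fatty acid elongase (log2 fold change -4.09), Cyp7b1, the oxysterol 7-alpha-hydroxylase (80.7 ± 24.9 against 1465 ± 575, log2 fold change -4.18 ± 0.42), and Egfr, the epidermal growth factor receptor (log2 fold change -1.12). The 2 listed as male-biased that rose in females were Hsd17b6, a retinol and 3-alpha-hydroxysteroid dehydrogenase (1208 ± 388 against 521 ± 188, log2 fold change 1.21 ± 0.29), and Igfals, which encodes the acid-labile subunit that carries IGF1 in blood (429 ± 163 against 206 ± 94.6, log2 fold change 1.05 ± 0.27). Both calls were lost with transcript length as an offset. A further 9 female-biased and 13 male-biased autosomal genes on the lists stayed below the count minimum.

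**Figure D3:**
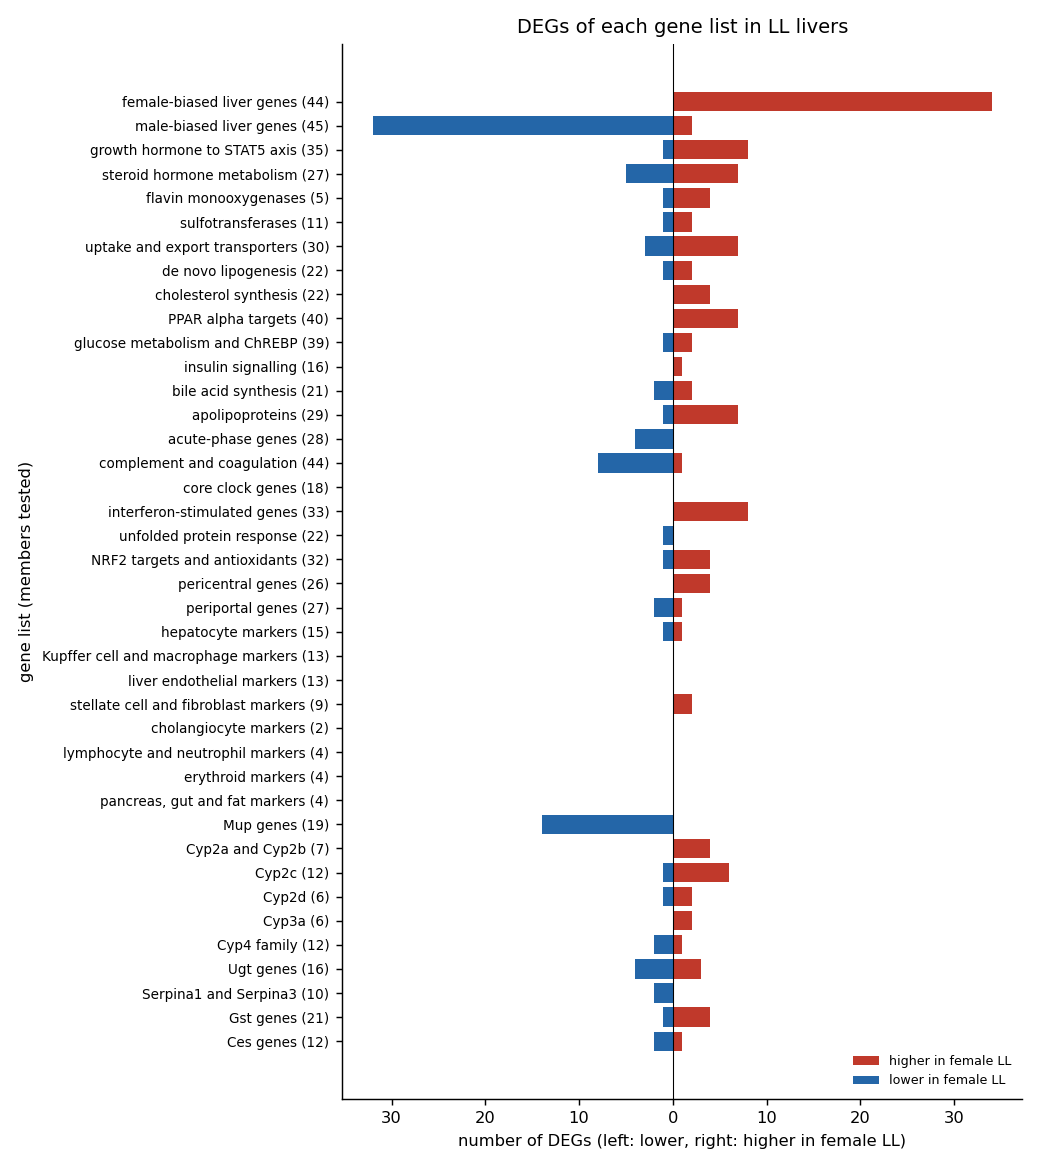
Number of DEGs in each of 40 gene lists, with bars to the right for members higher and to the left for members lower in female LL livers and the number of members tested in parentheses. The longest bars belong to the female-biased (34 of 44 higher) and male-biased (32 of 45 lower) liver genes, and the Mup genes follow with 14 of 19 lower.

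In the pathway from growth hormone to STAT5, the ligand's receptor and its kinase did not pass the test. Ghr, the growth hormone receptor, had 2114 ± 219 normalized counts in females and 2558 ± 360.3 in males (log2 fold change -0.27 ± 0.12, adjusted P = 0.155), and Jak2 had 41.4 ± 6.73 and 47.1 ± 17.8 (log2 fold change -0.18 ± 0.25, adjusted P = 0.74). Stat5b had 67.5, 72.2, 75, 104 and 109 in females and 55.9, 39.4, 68.5 and 50.8 in males (log2 fold change 0.65 ± 0.21, adjusted P = 0.0293). Its ranges overlapped slightly, and the call was lost without FLL4, FLL5, MLL1, MLL2 or MLL4. Stat5a, at 36.4 ± 4.82 and 35.2 ± 16.2, was not called (log2 fold change 0.07 ± 0.26).

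Of the transcription factors of this pathway, Cux2, the female-biased repressor of male genes, had 17.3, 37.6, 24.4, 53.1 and 42.7 normalized counts in females and 0, 0, 0 and 2.16 in males (2 male counts, ratio 61.1, interval 16.6 to 508, adjusted P = 2.6e-05). Bcl6, the male-biased repressor of female genes, had 10.9, 37.6, 17.9, 19.7 and 24.1 in females and 32.5, 16.7, 64.1 and 182 in males and was not called (log2 fold change -1.74 ± 0.62, adjusted P = 0.062). MLL2 lay below most females and MLL4 far above the other males. Tox, an HMG-box factor (45.7 ± 4.48 against 13.6 ± 7.78, log2 fold change 1.79 ± 0.32), Trim24, a corepressor (160 ± 25.6 against 79.1 ± 27.5, log2 fold change 1.02 ± 0.26), and Nr1i3, which encodes the xenobiotic receptor CAR (1878 ± 344 against 983 ± 327, log2 fold change 0.93 ± 0.23), were higher in females. Zfp809 was the only called gene of the list that was lower (53.5 ± 10.6 against 85.7 ± 3.12, log2 fold change -0.68 ± 0.22, lost under 12 of 21 alternatives).

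Among the outputs of the pathway, Socs2, a feedback inhibitor of growth hormone signalling, had 65.2 to 141 in females and 9.1, 89.5, 27.6 and 35.7 in males (log2 fold change 1.31 ± 0.38, adjusted P = 0.0145). Its groups overlapped through MLL2, and the call was lost without FLL5, MLL1 or MLL3. Cish, another feedback inhibitor, had 101.5 ± 41.9 and 40.1 ± 40.9 and was not called (log2 fold change 1.34 ± 0.85, adjusted P = 0.376). Igf1, the growth factor that liver secretes in response to growth hormone, had 3376 ± 757 and 2713 ± 239 (log2 fold change 0.32 ± 0.15, adjusted P = 0.216). Esr1, the oestrogen receptor alpha gene, had 147 ± 70.2 and 87 ± 40.2 (log2 fold change 0.76 ± 0.30, adjusted P = 0.0954). In total 8 of 35 genes of this list were higher (22.9%, against 3.62% of all genes tested) and 1 was lower (2.86%, against 2.7%). Of the 8, Prlr, Trim24, Tox and Cux2 are also on the list of female-biased genes and Igfals on that of male-biased genes. This count is therefore not independent of the counts of those lists. The counts of the lists that follow are to be read against the same shares of all genes. Several of these lists also share called members with the lists of female-biased or male-biased genes, so their counts are not independent either.

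Enzymes of steroid metabolism moved in both directions, with 7 of 27 tested higher (25.9%) and 5 lower (18.5%) in females. Rdh16f2, a short-chain dehydrogenase gene, rose from 301 to 344 normalized counts in males to 905 to 1124 in females (log2 fold change 1.62 ± 0.13, adjusted P = 1.86e-32). Cyp17a1, the steroid 17-alpha-hydroxylase, rose from 205 ± 168 to 615 ± 232 (log2 fold change 1.59 ± 0.49, adjusted P = 0.0216, lost without FLL3, MLL1, MLL2 or MLL3). Srd5a1, the 5-alpha-reductase of type 1, fell from 334 ± 63.6 in males to 137 ± 56.2 in females (log2 fold change -1.28 ± 0.30, adjusted P = 0.00113). Besides Hsd3b5 and Cyp7b1, Hsd3b2 and Akr1c14 were also lower. Cyp17a1 is also on the list of female-biased genes, and Hsd17b6, Hsd3b5, Cyp7b1 and Hsd3b2 are on that of male-biased genes.

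Families of drug-metabolising enzymes and transporters contained members of opposite bias. Among the flavin monooxygenases, which oxidise nitrogen- and sulfur-containing compounds, Fmo1, Fmo2 and Fmo4 were higher in females and Fmo5 was lower (1328 ± 227 against 2457 ± 596, log2 fold change -0.89 ± 0.16, adjusted P = 2.53e-06). Fmo4 lost its call when FLL1, FLL2, FLL3, FLL4, MLL1, MLL2 or MLL3 was left out, and Fmo1 without MLL4. Among the UDP-glucuronosyltransferases, which conjugate bilirubin, steroids and drugs, the 3 called members of the Ugt1a locus were higher, led by Ugt1a5 (520.5 ± 205 against 147 ± 45.7, log2 fold change 1.82 ± 0.29), and the 4 called Ugt2b genes were lower, led by Ugt2b38 (5.98 ± 5.04 against 159 ± 26.7, log2 fold change -4.68 ± 0.56). Of the 31-base words of Ugt1a5, Ugt1a9 and Ugt1a1, 75.6%, 76.3% and 87.1% also occur in another quantified gene. The levels of these Ugt1a genes are therefore uncertain one by one and are not separate results. Cyp2d9, a male-biased testosterone 16-alpha-hydroxylase, had 93.7 to 357 in females and 1992 to 6109.7 in males (log2 fold change -4.19 ± 0.46, adjusted P = 2.32e-17), whereas Cyp2d26 and Cyp2d13 were higher in females.

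Glutathione S-transferases were also called in both directions, with 4 of 21 higher and 1 lower. Gstt1 and Gstt3, of class theta, rose in females (log2 fold changes 0.88 ± 0.18 and 1.44 ± 0.26), as did Gstp3, of class pi (0.89 ± 0.30, adjusted P = 0.0432). Gstp1, also of class pi, had 861, 604, 581, 1018 and 1163 normalized counts in females and 1549, 6452, 7942 and 8469 in males (log2 fold change -2.85 ± 0.34, adjusted P = 2.38e-14). Of 30 uptake and export transporters 7 were higher (23.3%), including Slc22a27 (153 ± 40.1 against 3.08 ± 0.802, log2 fold change 5.65 ± 0.73), and 3 were lower. The 3 were Abcg2, the efflux pump BCRP (145 ± 25.6 against 348 ± 86.3, log2 fold change -1.26 ± 0.18), Slc10a2, a bile acid transporter (29.2 ± 11.9 against 92.8 ± 26.5, log2 fold change -1.64 ± 0.28), and Slc22a28 (log2 fold change -3.64 ± 0.96). Of the transporters that were higher, Slc22a26 and Slc22a27 are among those also on the list of female-biased genes. Of 32 NRF2 targets and antioxidant genes tested, 4 were higher and 1 was lower, and these were Gst genes apart from Nqo1, whose call was lost without FLL3, FLL5 or any male library.

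Lipid genes were described by pathway. Fasn, fatty acid synthase, had 1415, 1349, 821, 770.1 and 1152 normalized counts in females and 349.6, 389, 537 and 589 in males (log2 fold change 1.24 ± 0.20, adjusted P = 1.82e-07), with no overlap. It was 1 of 2 lipogenesis genes of 22 that were higher, with Elovl5 (log2 fold change 0.68 ± 0.21, lost without FLL1, FLL2, MLL2, MLL3 or MLL4), and Lpin1, a phosphatidate phosphatase, was lower (111 ± 27.1 against 242 ± 69.9, log2 fold change -1.13 ± 0.29). Srebf1 and Acaca, the lipogenic regulator and acetyl-CoA carboxylase, were not called (log2 fold changes 0.68 and 0.26). In cholesterol synthesis 4 of 22 genes were higher and none was lower, and of these only Hmgcs1 (1329 ± 412 against 627 ± 235, log2 fold change 1.08 ± 0.29) kept its call in every alternative setting, whereas Mvd, Mvk and Pmvk did not. Across alternatives the count of called cholesterol genes ranged from 1 to 6.

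Targets of PPAR alpha, the fatty-acid-activated receptor, gave 7 higher (17.5%) and 0 lower of 40 tested (17 at an unadjusted P below 0.05, and 4 higher in edgeR). The acyl-CoA thioesterases, which release free fatty acids from their CoA esters, led this group. Acot3 had 976, 1251, 1709.6, 1493 and 1533 normalized counts in females and 431, 308, 189.5 and 43.2 in males (log2 fold change 2.52 ± 0.57, adjusted P = 0.00053). Acot4 rose from 493 ± 192 to 1397 ± 403 (adjusted P = 2.31e-05) and Acot2 from 36.8 ± 20.4 to 107 ± 43.7 (log2 fold change 1.55 ± 0.36). These 3 genes lie on chromosome 12, and Acot1, of the same family, was not called (log2 fold change 1.09, adjusted P = 0.132). Cyp4a14, an omega-hydroxylase of the same family as Cyp4a12a, had 4229, 4610.2, 7576, 5316 and 5823 in females and 2493, 1254, 859.6 and 106 in males (log2 fold change 2.23 ± 0.66, adjusted P = 0.0158). Males spanned a wide range for Acot3 and Cyp4a14, in each case with MLL4 lowest and MLL1 highest, and the call of Cyp4a14 was lost without MLL3 and with fragment length as a term. Of the 7 called targets, Acot3, Cyp4a14 and Vnn1 are also on the list of female-biased genes.

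Of 29 apolipoprotein and lipoprotein genes 7 were higher (24.1%) and 1 was lower in females. Lipc, hepatic lipase, did not overlap between the sexes (949 ± 107 against 524 ± 102, log2 fold change 0.86 ± 0.15, adjusted P = 6.78e-07). Apoc3, an inhibitor of triglyceride clearance and an abundant transcript, had 9863 to 13759 in females and 3015, 8036, 7451 and 7199 in males (log2 fold change 0.84 ± 0.23, adjusted P = 0.0074). Apoa2, the second major protein of high-density lipoprotein, had 51088 ± 10611 and 34447 ± 6943 with overlapping groups (log2 fold change 0.57 ± 0.17, adjusted P = 0.0162, lost without FLL4, MLL1 or MLL4). The calls of Apoc3 and Apoa2 were lost with fragment length as a term and with transcript length as an offset. Sort1, a sorting receptor, was lower (11.1 ± 5.82 against 32.1 ± 10.8, log2 fold change -1.53 ± 0.41, lost without MLL4).

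Complement genes were among those lower in females. Of 44 complement and coagulation genes tested 8 were lower (18.2%) and 1, Mbl2, was higher. The 8 included 4 of the terminal pathway components that build the membrane attack complex beside Hc, which encodes C5. C6 had 68.4, 56.4, 43.2, 24.7 and 35 normalized counts in females and 521, 922, 887 and 1014 in males (log2 fold change -4.19 ± 0.43, adjusted P = 2.53e-19). C9 had 562 to 945 against 2211 to 3359 (log2 fold change -1.83 ± 0.27), C8a had 389.5 to 980.4 against 2286 to 3465 (log2 fold change -1.89 ± 0.32), and C8b changed by -1.62 on the log2 scale. The median of the whole list was 0.01, the same as over all genes, so the fall was that of some members. C4a, C6, C8a, C8b and C9 are also on the list of male-biased genes.

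Acute-phase genes gave 4 lower (14.3%) and 0 higher of 28 tested (9 at an unadjusted P below 0.05, and 2 lower in edgeR). Saa4, the constitutive serum amyloid A, was lower in females in every setting (599 to 728 against 1099 to 1693, log2 fold change -1.16 ± 0.19), whereas Saa1, the inducible form (98.2 ± 18.8 against 397 ± 159.7, log2 fold change -2.02 ± 0.66, adjusted P = 0.0349), lost its call without FLL1, FLL2, FLL4, FLL5, MLL1, MLL2 or MLL4. Interferon-stimulated genes gave 8 higher (24.2%) and 0 lower of 33 tested (14 at an unadjusted P below 0.05, and 5 higher in edgeR). Igtp, an immunity-related GTPase, kept its call in every setting (318 ± 58.9 against 144 ± 33.2, log2 fold change 1.15 ± 0.24, adjusted P = 0.000162). Irf7 and Ifi27l2a were called in 13 of 21 and 14 of 20 settings, and both lost their call without MLL1. The number of called interferon genes ranged from 2 to 10 across settings.

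Zonation genes, which mark hepatocytes near the central vein or the portal vein, were mostly not called. Of 26 pericentral genes 4 were higher (15.4%) and none was lower in females (12 at an unadjusted P below 0.05, and 3 higher in edgeR), with Nt5e (110.4 ± 43.1 against 12.8 ± 2.1, log2 fold change 3.12 ± 0.40) and Lect2 (715 ± 104 against 361 ± 65.8, log2 fold change 0.99 ± 0.14) called in every setting. Of 27 periportal genes, Ctsc was higher (294 ± 56.4 against 146 ± 30.8, log2 fold change 1.01 ± 0.19), and Cyp2f2 and Mup20 were lower. Bile acid synthesis had 2 of 21 genes higher and 2 lower, of which Scp2, the peroxisomal sterol carrier thiolase, had 10745 ± 451 in females and 21051 ± 2745 in males (log2 fold change -0.97 ± 0.12, adjusted P = 2.13e-13). Among 39 genes of glucose metabolism and its regulator ChREBP only Arrdc4 and Ppp1r3c were higher and Pfkfb3 lower, of 16 insulin signalling genes only Irs1 was higher, and of 22 unfolded protein response genes only Dnajb9 was lower. None of 18 core clock genes was called by DESeq2 or edgeR, with 5 at an unadjusted P below 0.05.

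Gckr itself, the knocked-in gene (chr5:31454787-31484658), had 588, 570.5, 586, 691 and 526 normalized counts in female LL and 516, 462, 466 and 465 in male LL libraries. The groups did not overlap, but the difference did not pass the test (log2 fold change 0.31 ± 0.14, adjusted P = 0.172). Gene counts do not show which allele a library carries, so they do not check the genotype labels.

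To see which of these differences are shared with mice of the P form, the same contrast was fitted in PP livers, which share no library with the LL contrast. It gave 654 DEGs (6.64% of the genes tested), and 276 genes were DEGs of the same sign in both genotypes (140 higher and 136 lower in females), which is 44.3% of the LL and 42.2% of the PP DEGs. No gene was a DEG in both with opposite sign. Markers of other cell types moved with sex in PP, where 10 of 13 endothelial and 6 of 9 stellate cell and fibroblast markers were higher in females. Over all 9856 genes, 385 were higher in PP females. In LL, 0 and 2 of these markers were higher, against 357 of all genes. The test of the difference between genotypes, described below, called none of these markers. The counts therefore do not show that the markers differ between genotypes. Their part in the PP contrast and in the comparison of genotypes was not tested. Of the 347 DEGs found in LL alone, 317 had a log2 fold change of the same sign in PP. The test of the difference between genotypes, described next, gave an adjusted P for only 43 of the 347, of which 1 was called, so it does not show whether the others differ. Of the 149 LL DEGs (75 higher, 74 lower) that were called under all 21 alternative settings, 123 were also DEGs in PP.

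**Figure D4:**
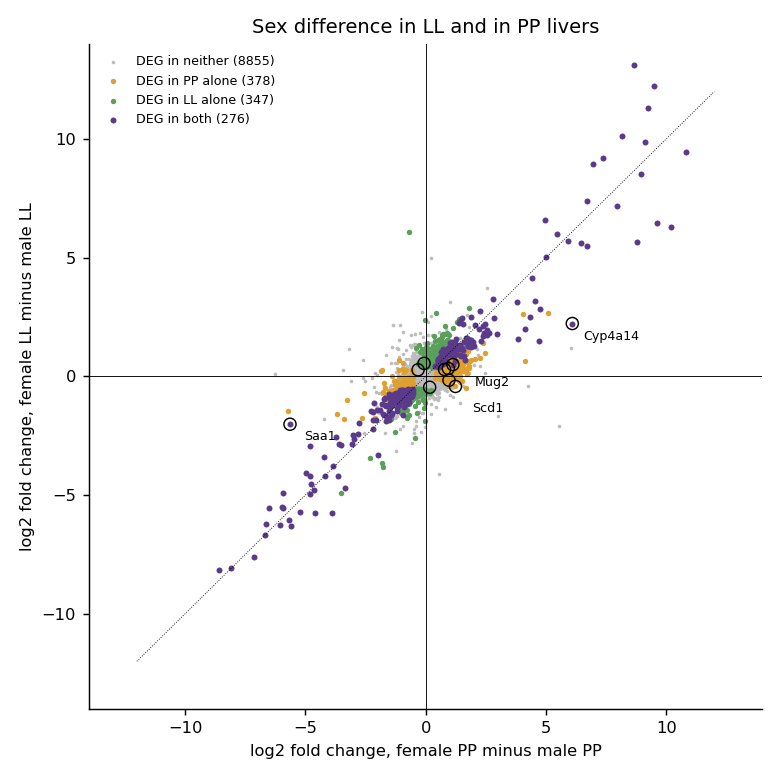
Log2 fold change of female minus male in PP livers (horizontal axis) and in LL livers (vertical axis) for the genes tested, coloured by whether they are DEGs in both (276), in LL alone (347), in PP alone (378) or in neither, with a dotted line of equal change and black rings on the 10 protein-coding genes with the smallest interaction P. Shared DEGs have the same sign in both genotypes, but some lie well off the line, such as Slc22a27 (5.65 in LL, 8.79 in PP). The ringed genes Cyp4a14 and Saa1 are also shared DEGs. Outside the axes lie 2 genes.

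The difference of the sex contrast between genotypes (the interaction) was tested in the same DESeq2 fit. It passed an adjusted P below 0.05 for 14 genes (0.142% of the genes tested). An unadjusted P below 0.05 was found for 569 of the 9856 genes, a share close to the 0.05 that chance alone gives. Independent filtering on mean count left an adjusted P for only 683 of the 9856 genes, and without it 4 genes passed. It was called for no gene by edgeR (636 at an unadjusted P below 0.05), for 4 genes with age as a term and for 2 to 27 genes when 1 of the 18 libraries was left out. The count was 2 without FPP3, 4 without MPP2, 5 without FPP2 or MLL1, 7 without MPP1 or FLL4, 8 without MPP4 and 27 without FLL3. Among the named genes, Cyp4a14 and Alb shared the smallest adjusted interaction P. Cyp4a14 had 5511 ± 1309 normalized counts in female LL, 1178 ± 997 in male LL, 5106 ± 1031 in female PP and 74.6 ± 61.1 in male PP (interaction log2 fold change -3.87 ± 0.93, adjusted P = 0.0075). The female ranges of the 2 genotypes overlapped, and the male LL range of 106 to 2493 reached from within the male PP range of 10.5 to 153 to far above it.

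A smaller sex difference in LL than in PP was also found for plasma protein genes of the albumin locus on chromosome 5. Alb, albumin, had 566644 ± 47187 and 449924 ± 48957 in female and male LL livers against 669538 ± 38960 and 348147 ± 45690 in PP (interaction log2 fold change -0.61 ± 0.15, adjusted P = 0.0075), and Afm, its neighbour afamin, gave -0.64 ± 0.16 (adjusted P = 0.0108). Scd1, the stearoyl-CoA desaturase, had 29644, 24152, 54130.1, 13812 and 10529 in female LL and 36094, 31264, 34793 and 39754 in male LL livers and was not called within LL (log2 fold change -0.42 ± 0.33), whereas in PP it was higher in females (interaction -1.66 ± 0.46, adjusted P = 0.0283). Saa1 differed by an interaction of 3.62 ± 0.93 (adjusted P = 0.0108), with 281 to 631 in male LL and 591 to 12598.5 in male PP libraries. H2-K1, a class I histocompatibility gene, was higher in LL females (5877 ± 787 against 4020 ± 504) and not called in PP, with an interaction of 0.61 ± 0.16 (adjusted P = 0.0164). None of the 10 genes kept the interaction call in all alternatives, and the highest adjusted P over the alternatives was 0.354 for Cyp4a14 and 0.725 for Alb.

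**Figure D5:**
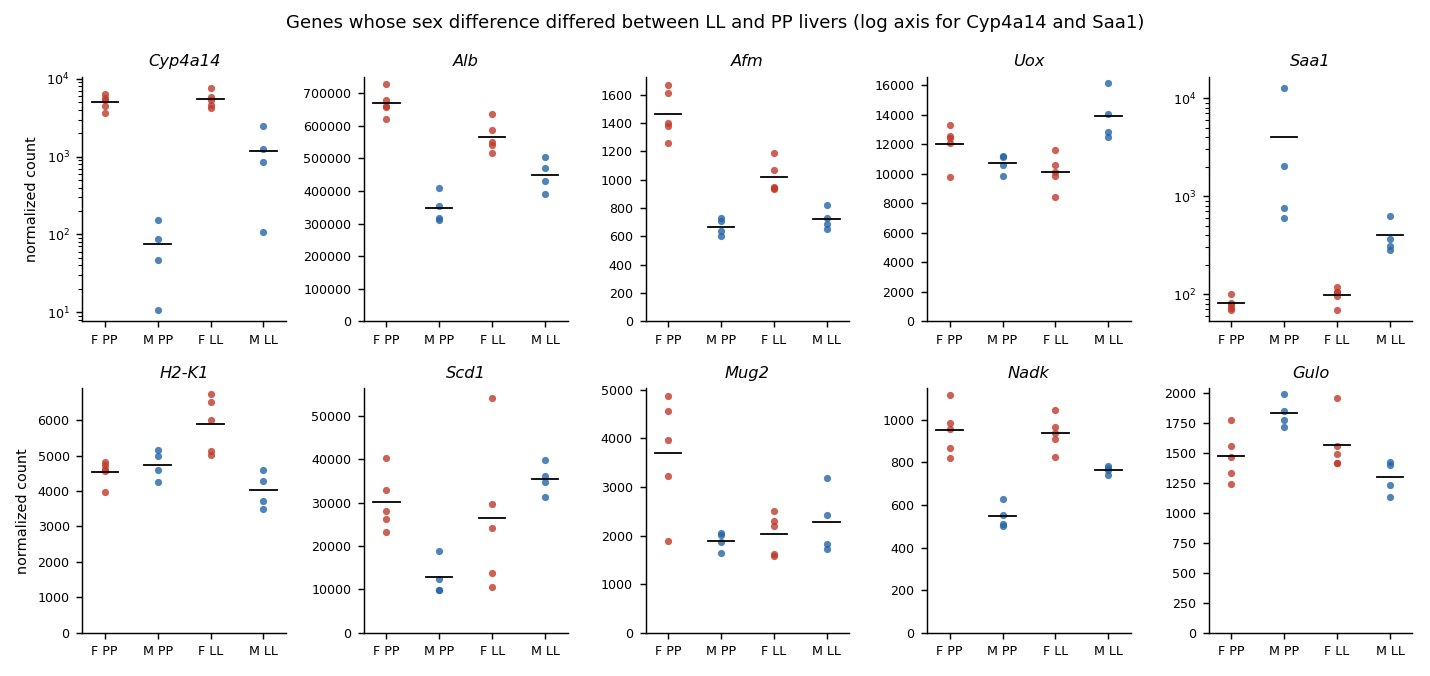
Normalized counts per library of the 10 protein-coding genes with the smallest interaction P in female (F, red) and male (M, blue) PP and LL livers, with a horizontal line at the group mean and a log axis for Cyp4a14 and Saa1. In Cyp4a14 the female groups overlap, and the male LL libraries (106 to 2493) reach from within the male PP range to far above it. In Alb the female and male means lie closer together in LL than in PP.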

How the data were processed

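RNA from 18 livers was extracted with Trizol and RNeasy columns and sequenced, and the authors quantified transcripts with Salmon 1.4.0 (GENCODE M26, GRCm39). The deposited files give estimated counts and TPM (a relative abundance scaled by transcript length) per transcript, so depth is known only as estimated counts. Here counts were summed to genes through GENCODE M39, which matched 137570 of 139225 transcripts, and rounded to whole numbers. One fit of all 18 libraries with 4 groups of sex and genotype was made in DESeq2 1.42.0 (R 4.3.3), with Benjamini-Hochberg adjustment, and a DEG had an adjusted P below 0.05 and a fold of at least 1.3 or at most 0.7. The interaction had no fold limit. Normalized counts are counts divided by DESeq2 size factors. Values are means ± SD (n = 5 female and 4 male LL), and fold changes are given ± SE. Where a male library had 0 counts, 3 counts were taken as its limit, and ratios resting on 1 to 3 male counts have exact 95% binomial intervals. Intervals and limits cover counting error only. TPM was used for the share of Mup transcripts and to choose abundant genes. Nothing in the labels says that replicates were more than separate samples, so P values measure the spread between these samples.

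Genes were named by fixed rules: the 15 protein-coding DEGs of largest fold change in each direction without overlap and with a mean of at least 50 in the higher group, the 5 most abundant DEGs in each direction by TPM, the 10 protein-coding genes of smallest interaction P, and members of the gene lists. The members and lists were chosen with earlier results of these data known. Alternatives were edgeR 4.0.16, other normalization and filters, fragment length or age as a term, a transcript length offset, a replicate block and leaving out each library. In 5 simulated data sets of 9856 genes for female LL against male LL, 200 genes with a mean of at least 50 normalized counts were changed 2-fold. The fit recovered 89% of these 200, with 18.4 false calls on average. Recovery of genes with lower counts was not simulated. Pairs of libraries within a group gave a chi-square per degree of freedom of 10.4 to 107, so none was a copy of another. Proteins are not printed here. Results of 2 of the genes these rules name are not reported here.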

Additional observations from a re-analysis of the deposited data

Results flagged for a closer look

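In 18 of 334 group tests over 163 named genes and the library properties, 1 library stood far from the rest of its group by Dixon's test, which chance gives in about 1 of 20 groups. FLL1 was high for Mup7 (1852 normalized counts, other females 211 to 421), Mup1 (415, others 70.1 to 142), Mup12 (57.5, others 8.64 to 15.8) and Cyp4a12a (19.2, others 0 to 1.63), all genes of male bias. FLL3 was high for Cyp3a41a (5484, others 12.3 to 966), Cyp17a1 (1019, others 453 to 593), Acot4 (2095, others 1068 to 1357.5) and Steap4 (369, others 200 to 243), and low for Mbl2 (2688, others 3116 to 3212). FLL4 was high for Ugt1a1 (3947, others 2764 to 2985), and FLL5 for Igfals (711, others 309 to 421) and Gulo (1955, others 1418 to 1562). Among males, MLL1 was high for Cyp2b9 (59.8, others 0 to 4.77), Prlr (509, others 186 to 218) and Gckr (516, others 462 to 466) and low for Apoc3 (3015, others 7199 to 8036). MLL4 was high for Cyp2a4 (96.2, others 1.78 to 6.5) and Esr1 (147, others 60.5 to 71.5).

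The sex difference differed between LL and PP livers, by the interaction term in DESeq2, for 11 named genes. The interaction log2 fold change was -3.87 for Cyp4a14, -3.88 for Cyp2a4, -1.66 for Scd1, -1.13 for Mug2, -0.64 for Afm, -0.61 for Alb, -0.63 for Uox, -0.50 for Nadk, 0.61 for H2-K1, 0.59 for Gulo and 3.62 for Saa1. Each lost its call in some alternatives, and edgeR called no gene.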

How the results depend on the processing

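The number of DEGs by sex in LL livers, 623, was 399 with fragment length as a term, 456 in edgeR and 422 to 764 when 1 LL library was left out, the lowest without FLL5 and the highest without FLL3. With transcript length as an offset 429 DEGs were found, of which 294 were among the 623. The 14 interaction genes became 0 in edgeR, 4 without independent filtering, 4 with age as a term, 8 with the replicate block and 2 to 27 when 1 library was left out. Why these counts moved was not tested. The Mup share difference of -12.1 percentage points was -16.0 by TPM and -13.3 to -10.8 with 1 library left out. Same-numbered female and male LL libraries did not detectably deviate together (correlations -0.04, 0.0883, 0.00847 and 0.129, against -0.21 to 0.165 over all pairs). No pairing by number was seen, but so few pairs cannot exclude one. The fit with the replicate block gave 474 DEGs in LL. Among the fold changes of named genes, 3062 values kept direction and call under an alternative, 301 lost a call, 20 gained one and 13 changed sign, none of these in a called gene. Stat5a became -0.00067 with fragment length as a term and -0.15 to 0.37 over the fits with 1 library left out. Fcgr2b became 0.011 with a minimum of 50 counts, 0.015 with fragment length, 0.037 with age and -0.27 to 0.058 with 1 left out. Mug2 became 0.054 with fragment length and ranged from -0.28 without MLL2 to 0.041 without MLL4, and Jak2 ranged from -0.32 without MLL2 to 0.084 without MLL1. Depth limits statements on genes with 0 male counts to the lower bounds given.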
